A study of Mus musculus with 9 samples.

Results

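The Hoxb cluster was followed gene by gene in cells resembling the caudal epiblast of the mouse embryo, the region at the tail end that generates trunk tissue. The members were the 9 rows of the deposited expression table named Hoxb1, Hoxb2, Hoxb3, Hoxb4, Hoxb5, Hoxb6, Hoxb7, Hoxb8 and Hoxb9, of 24736 genes in the table. All 9 libraries came from embryonic stem cells of 1 of 3 genotypes: wild-type cells (WT), cells labelled Cdx1/2/4-/- (CdxKO), which lack the 3 caudal homeobox factors, and cells labelled T/Bra-/- (T/BraKO), which lack the T-box factor Brachyury. Each genotype had 3 libraries, labelled biological replicates 1, 2 and 3. Every culture, of whichever genotype, received 10 ng/ml bFGF and 5 uM LGK974, an inhibitor of WNT secretion, for 2 days. CHIR99021, an agonist of the WNT pathway, was then added to the same medium until collection at 72 h.

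The WT cells were a male line carrying a doxycycline-responsive transactivator, and no second line of any genotype was analysed here, so the mutation and the line that carries it cannot be told apart. The stem cells had been grown on mouse embryonic fibroblast feeders, which were separated from them before differentiation. Library totals ran from 25124344 to 34705361 expected counts, so that 3 counts, taken as the floor, were worth 0.0864 to 0.119 CPM (counts scaled to a common library total). Of the 9 genes listed as markers of caudal epiblast, 9 were above 3 counts in every library, which shows reads and does not identify the cells. The list includes the targeted T, Cdx1 and Cdx2. With genotype as the only term, 4 were called lower and 0 higher in CdxKO (0.358% and 0.335% of all genes). In T/BraKO 3 were called lower and 2 higher (0.937% and 0.148% of all genes). Cdx2, one of the targeted genes, had 4199 ± 1740 (SD, n = 3) normalised counts (counts divided by the size factor of the library) in WT and 1031 ± 515 in CdxKO. The corresponding values for Cdx1 were 536 ± 90.7 and 272 ± 68.7, and those for Cdx4 were 118 ± 52.2 and 1.64 ± 0.338. T itself had 12243 ± 2181 normalised counts in WT and 2295 ± 563 in T/BraKO. All 4 targeted genes were called lower in the line that lacks them, and reads of Cdx1, Cdx2 and T remained there.

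Hox genes encode homeodomain transcription factors that give cells their position along the body axis. They lie in clusters, and the order of the genes in a cluster matches the order in which they are switched on and the order of their anterior limits in the embryo: genes at the Hoxb1 end act early and toward the hindbrain, and genes at the Hoxb9 end act later and toward the trunk. CDX factors and WNT signalling are known activators of the trunk Hox genes in the caudal epiblast.

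The cluster runs for 96.8 kb on chromosome 11 of the mouse genome (GENCODE M21 on GRCm38, the assembly also called mm10), from 96271457 to 96368256, and all 9 genes are read on the plus strand. Hoxb9 comes first in that direction (chr11:96271457-96276595), followed by Hoxb8 (chr11:96281905-96285315), Hoxb7 (chr11:96286623-96290162), Hoxb6 (chr11:96292476-96301569) and Hoxb5 (chr11:96303336-96306121). Beyond a gap of 12.1 kb lie Hoxb4 (chr11:96318267-96321638), Hoxb3 (chr11:96323326-96347930), Hoxb2 (chr11:96350525-96354012) and Hoxb1 (chr11:96365752-96368256). Longer Hoxb3 transcripts in RefSeq overlap Hoxb4 on the same strand, so reads could be divided between those 2 genes by the authors' counting. No expected count of either gene was fractional in these libraries.

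Promoter sequence from RefSeq on GRCm38.p6 was at hand for 3 of the 9 members, and these happen to sample the Hoxb1 end, the middle and the Hoxb9 end of the cluster. The 250 bases before each transcript start are printed 5′ to 3′ on the plus strand, because the 3 genes differed in how their levels changed in the mutants. Capitals mark every match, on either strand, to the CDX core motifs TTTATG and TTTATT, the T-box half-site AGGTGTG and the TCF/LEF core CTTTGA. None of these motifs contains another.
Hoxb1, chr11:96365508-96365757: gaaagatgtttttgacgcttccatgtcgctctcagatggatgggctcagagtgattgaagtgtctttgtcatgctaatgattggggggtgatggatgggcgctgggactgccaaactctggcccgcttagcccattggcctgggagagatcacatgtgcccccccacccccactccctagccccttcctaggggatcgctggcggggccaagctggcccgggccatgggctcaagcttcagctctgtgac
Hoxb4, chr11:96318017-96318266: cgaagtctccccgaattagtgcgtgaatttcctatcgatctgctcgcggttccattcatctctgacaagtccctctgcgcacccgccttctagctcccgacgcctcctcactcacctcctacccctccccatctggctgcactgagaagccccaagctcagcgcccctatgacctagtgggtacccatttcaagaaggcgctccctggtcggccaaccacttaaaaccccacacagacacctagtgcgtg
Hoxb8, chr11:96281655-96281904: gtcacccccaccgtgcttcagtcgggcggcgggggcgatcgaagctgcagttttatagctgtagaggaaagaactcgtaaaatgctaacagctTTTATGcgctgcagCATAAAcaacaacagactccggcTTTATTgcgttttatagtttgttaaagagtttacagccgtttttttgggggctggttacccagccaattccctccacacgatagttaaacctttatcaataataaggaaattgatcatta

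The Hoxb8 stretch held 3 matches to the CDX cores, starting 157, 143 and 120 bases before the transcript start, and the match at 143 lay on the opposite strand. The Hoxb1 and Hoxb4 stretches held no match to any of the 4 motifs, and the Hoxb8 stretch held none to the T-box or TCF/LEF motif. Over 32851 RefSeq promoter stretches of the same length, 25.5% held at least 1 of the CDX cores (10.8% TTTATG and 18.1% TTTATT), 5.1% held the T-box half-site and 13.8% the TCF/LEF core. The Hoxb8 stretch was also richer in A and T (55.6%) than the median stretch (47.6%), and those of Hoxb1 (40.8%) and Hoxb4 (42.0%) were poorer. A match is a run of letters and not a bound site.

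By mean level over the 3 WT libraries, the transcripts of the cluster were most abundant at its ends. Measured per transcript length, as TPM (transcript abundance scaled for length and library), Hoxb9 stood at 53.2 ± 51.6 TPM (SD, n = 3) and Hoxb1 at 49.9 ± 20.7 TPM. In WT replicate 2, however, Hoxb9 stood at 5.49 TPM, below Hoxb2 at 10.54 TPM and Hoxb1 at 35.04 TPM. Hoxb5, near the middle, had the lowest mean at 1.68 ± 1.65 TPM. Hoxb2 followed the ends at 30.4 ± 21.4 TPM and Hoxb8 at 20.05 ± 17.5 TPM, and Hoxb7, Hoxb6, Hoxb4 and Hoxb3 had mean levels between 2.89 and 9.70 TPM. For each neighbouring pair in this order the ranges over the 3 libraries overlapped, because the libraries themselves differed greatly. Within a library the order was steadier: of the 8 neighbouring pairs, 6 kept their order in 3 of 3 libraries, and the exceptions were Hoxb9 with Hoxb1 and Hoxb6 with Hoxb4, each in 2 of 3.

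The 3 genotypes divided their Hoxb transcripts differently between the ends of the cluster. Hoxb6 to Hoxb9 made up 42.5 ± 18.1% (SD, n = 3) of the summed Hoxb TPM for WT, 1.02 ± 0.532% for CdxKO and 63.0 ± 12.3% for T/BraKO. Hoxb1 and Hoxb2 together held 52.3 ± 17.6%, 97.6 ± 1.02% and 29.8 ± 10.8%. The CdxKO libraries, at 0.551% to 1.60% for Hoxb6 to Hoxb9, lay far below the 21.8% to 55.1% of WT, whereas the T/BraKO libraries, at 49.0% to 71.8%, overlapped the WT range. The summed level differed much less than its division: it was 320 TPM, 63.0 TPM and 153 TPM in WT replicates 1, 2 and 3, 182 TPM, 63.9 TPM and 113 TPM in CdxKO, and 320 TPM, 60.6 TPM and 159 TPM in T/BraKO. In bulk RNA, fewer cells with a transcript and less of it per cell cannot be told apart.

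**Figure D1:**
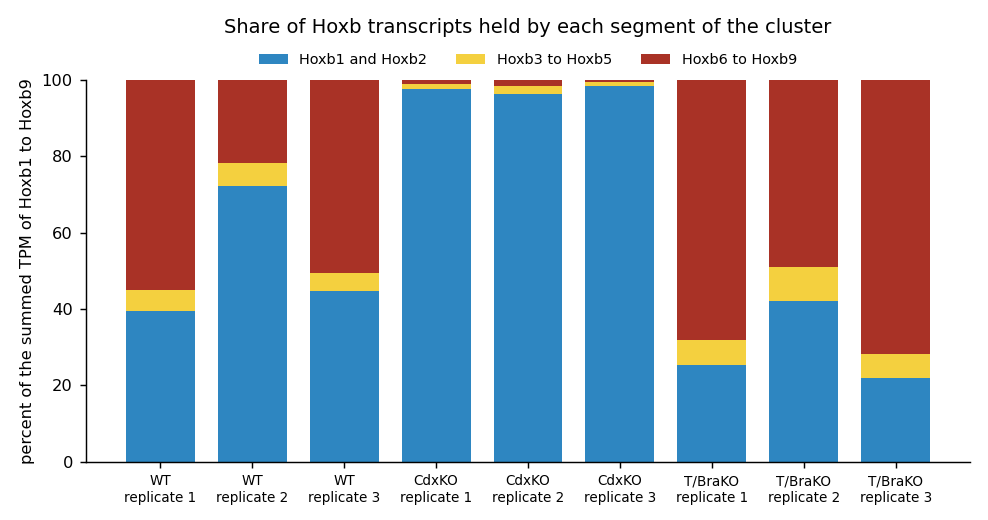
Bars give, for each of the 9 libraries, the percent of the summed TPM of Hoxb1 to Hoxb9 held by Hoxb1 and Hoxb2 (blue), Hoxb3 to Hoxb5 (yellow) and Hoxb6 to Hoxb9 (red). In CdxKO, Hoxb6 to Hoxb9 hold 0.551% to 1.60%, against 21.8% to 55.1% in WT and 49.0% to 71.8% in T/BraKO.

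The first comparison asked what happens along the cluster when the Cdx genes are missing. From Hoxb3 to Hoxb9 every gene was lower in CdxKO than in WT, with a median log2 fold change over the 9 members of -4.81 (all genes tested: -0.0023), whereas Hoxb1 and Hoxb2 were not called lower. With DESeq2, fitted to all 9 libraries with genotype as the only term, 7 of the 9 members were called lower at an adjusted p of at most 0.05 and 0 higher, where 0.358% of all genes tested were called lower and 0.335% higher. The same 7 had every CdxKO library below every WT library, which held for 4.5% of genes averaging 10 or more normalised counts. The plots of levels by library and of fold change along the cluster show this break between Hoxb2 and Hoxb3. The gap from the end of Hoxb3 to the start of Hoxb2 is 2.6 kb. Their starts lie further apart, 15.2 kb (Hoxb2) and 42.4 kb (Hoxb3) from the start of Hoxb1.

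**Figure D2:**
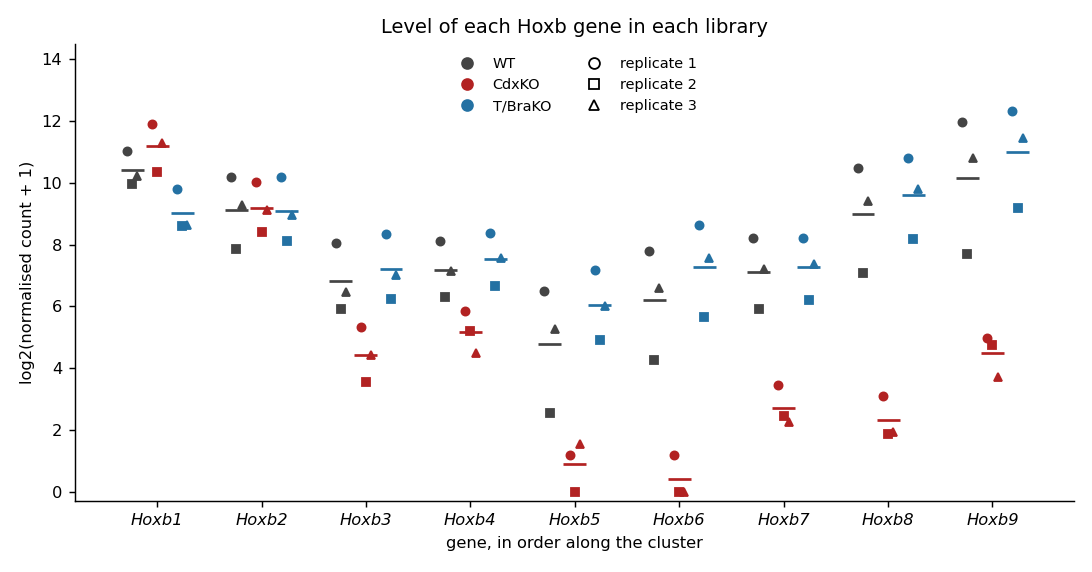
Each point is log2(normalised count + 1) of 1 gene in 1 library, coloured by genotype and shaped by replicate number, with a bar at the mean of the 3 libraries; genes stand in order from Hoxb1 to Hoxb9. The CdxKO points overlap the WT points for Hoxb1 and Hoxb2 and lie below all WT and T/BraKO points from Hoxb3 to Hoxb9, and within WT and T/BraKO replicate 1 is the highest point for each of the 9 genes.

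Hoxb9, the member at the trunk end, had 4057, 204 and 1772 normalised counts in WT replicates 1, 2 and 3 and 30.1, 25.9 and 12.2 in CdxKO. The lowest WT library was still well above the highest CdxKO library. The log2 fold change was -6.47 ± 1.09 (SE; DESeq2 adjusted p = 2.14e-06), and it was smaller when replicate number was added as a term (-5.61 ± 0.913). Within a replicate number the difference was uneven, with log2 ratios of -7.07 and -7.18 in numbers 1 and 3 and -2.98 in number 2, where the WT library was low.

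Hoxb8, a trunk gene next to Hoxb9, had 1415, 135 and 677 normalised counts in WT and 7.52, 2.68 and 2.82 in CdxKO, the last of these from 3 counts. The groups did not overlap, and the log2 fold change was -7.45 ± 1.04 (SE; DESeq2 adjusted p = 1.05e-09). Of the 3 promoter stretches printed above, that of Hoxb8 holds matches to the CDX cores, as do 25.5% of all stretches, and that of Hoxb4, also lower in CdxKO, holds none. Hoxb7 had 295, 59.0 and 146 normalised counts in WT and 10.0, 4.46 and 3.76 in CdxKO, again without overlap. Its log2 fold change was -4.81 ± 0.693 (SE; DESeq2 adjusted p = 4.57e-09), and within the replicate numbers the log2 ratios were -4.88, -3.72 and -5.28.

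Hoxb6 and Hoxb5 were almost without reads in CdxKO. Hoxb6 had 197, 19 and 102 counts in the WT libraries and 1, 0 and 0 in CdxKO, a ratio of 316 with an exact 95% counting interval of 56.4 to 12538. Hoxb5 had 80, 5 and 40 counts in WT and 1, 0 and 2 in CdxKO, a ratio of 41.5 with an interval of 13.9 to 204. Both were called lower (DESeq2 adjusted p of 0.000224 for Hoxb6 and 0.00245 for Hoxb5). The intervals cover counting error only, and the fitted fold changes of these 2 genes rest on so few reads that they give no order among Hoxb5, Hoxb6 and Hoxb8.

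Hoxb4 and Hoxb3, in the middle of the cluster, were reduced but clearly present in CdxKO. Hoxb4 had 276, 78.3 and 142 normalised counts in WT and 56.4, 35.7 and 21.6 in CdxKO. Hoxb3 had 267, 59.0 and 86.7 in WT and 38.9, 10.7 and 20.7 in CdxKO. Neither gene overlapped between the groups. The log2 fold changes were -2.13 ± 0.544 (SE; DESeq2 adjusted p = 0.0186) for Hoxb4 and -2.56 ± 0.675 (SE; DESeq2 adjusted p = 0.0267) for Hoxb3. These were the least secure of the calls: without WT replicate 1, Hoxb3, Hoxb4 and Hoxb5 were no longer called, which left 4 members, and without CdxKO replicate 2 or CdxKO replicate 3 Hoxb3 and Hoxb4 were not called. Without WT replicate 3, Hoxb4 alone lost its call.

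At the hindbrain end the pattern was different. Hoxb2 had 1180, 232 and 628 normalised counts in WT and 1047, 339 and 554 in CdxKO, and the 2 groups overlapped almost completely. With the replicate number in the model its log2 fold change was 0.04, with a 95% interval of -0.22 to 0.30, so a change as large as that of Hoxb3 lies outside the interval. Hoxb1 had 2106, 994 and 1207 normalised counts in WT and 3803, 1317 and 2533 in CdxKO. The groups overlapped, and the log2 fold change of 0.83 ± 0.554 (SE) was not called (DESeq2 adjusted p = 1.00). Within the replicate numbers, however, CdxKO was the higher in 3 of 3, with log2 ratios of 0.85, 0.41 and 1.07, as 23.2% of genes were, and with replicate number as a block Hoxb1 was called higher at 0.79 ± 0.196 (SE; DESeq2 adjusted p = 0.00245). That call was lost without WT replicate 1, WT replicate 3 or CdxKO replicate 1.

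With the replicate block, which is justified for these libraries by the check given under the processing, 7 members were again called lower, as 1.91% of genes tested were, and Hoxb1 was called higher, as 3.4% were. The edgeR quasi-likelihood test with the block made the same 8 calls, against backgrounds of 1.73% lower and 2.82% higher. Without the block edgeR called 0 of the 9 members, and 0.0756% of genes lower and 0.0344% higher, although 7 had an unadjusted p of at most 0.05, with adjusted p of 0.112 for Hoxb8 and 0.118 for Hoxb7, the smallest of the members. Summed levels of 9 fibroblast markers, of which 8 were above the floor in each library, ran from 2801 to 5479 normalised counts in CdxKO and from 1894 to 3607 in WT, and their part in the Hoxb differences was not tested.

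**Figure D3:**
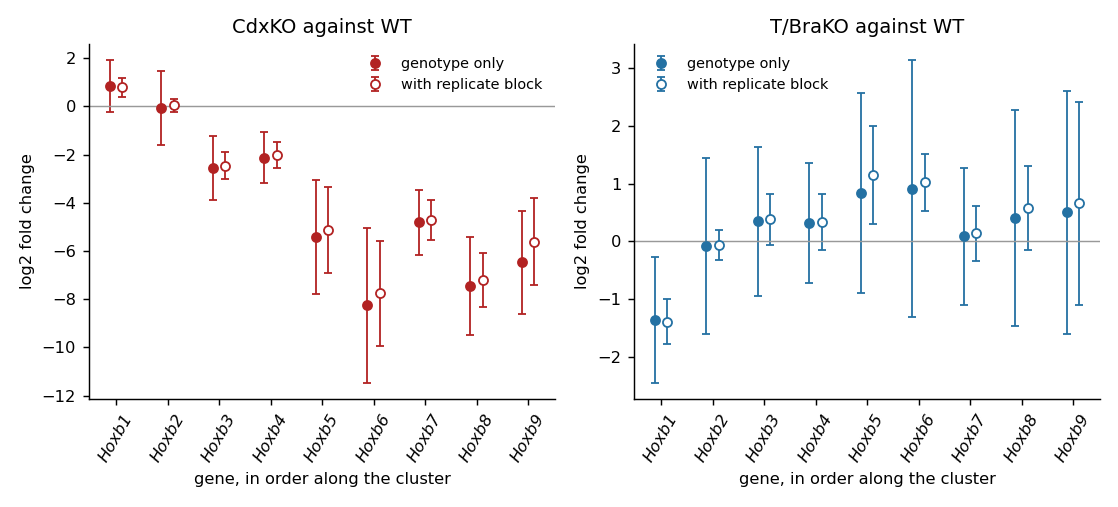
Log2 fold changes with 95% intervals (bars, from the SE of DESeq2) of Hoxb1 to Hoxb9, in order along the cluster, for CdxKO against WT (left) and T/BraKO against WT (right), with genotype as the only term (filled) and with the replicate block (open); the vertical scales differ. In CdxKO the estimates fall from 0.83 at Hoxb1 to between -4.81 and -8.26 from Hoxb5 to Hoxb9, those of Hoxb5 and Hoxb6 resting on 3 reads and 1 read in CdxKO; in T/BraKO Hoxb1 lies lowest, at -1.36.

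Position in the cluster and size of change went together in CdxKO. Spearman's rho between the order from Hoxb1 to Hoxb9 and the log2 fold change was -0.83 over the 9 genes. It was also -0.83 with Hoxb5 and Hoxb6 set at their count ratios. Those ratios rest on the same few reads, so the second value does not test the effect of low counts. Within replicate numbers 1, 2 and 3 rho was -0.92, -0.85 and -0.97, from log2 ratios of single libraries with 1 added to each normalised count. In those ratios the places of Hoxb5, Hoxb6 and Hoxb8 depend on the added 1, because CdxKO has so few of their reads. The genes share their libraries and are not independent, so the value is a description with no p. The fall was not even along the cluster, since the log2 fold change of Hoxb7 was smaller in size than that of its neighbour Hoxb8.

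The second comparison asked the same of Brachyury. In T/BraKO the trunk end of the cluster was present at levels like those of WT or above, and the gene that differed most clearly was Hoxb1, at the opposite end. Without the block DESeq2 called 0 of the 9 members (1 had an unadjusted p of at most 0.05, and edgeR also called 0, with 1 at that unadjusted p), where DESeq2 called 0.937% of genes lower and 0.148% higher and edgeR 0.337% and 0.0481%. The median log2 fold change over the members was 0.35 (all genes tested: 0).

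Hoxb1 had 888, 390 and 399 normalised counts in T/BraKO against the WT values of 2106, 994 and 1207 given above. Every T/BraKO library lay below every WT library, as for 5.88% of genes, and the log2 ratios within the replicate numbers were close to each other at -1.25, -1.35 and -1.60, all negative as for 23.1% of genes. The log2 fold change was -1.36 ± 0.555 (SE; DESeq2 adjusted p = 0.543) without the block and -1.39 ± 0.199 (SE; DESeq2 adjusted p = 3.32e-10) with it, where 4.85% of genes were called lower. The fit without the block to the 6 WT and T/BraKO libraries alone also called it.

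The members beyond Hoxb2 leaned the other way. Of Hoxb3 to Hoxb9, 6 were higher in T/BraKO than in WT within 3 of 3 replicate numbers, as 27.0% of genes were, and Hoxb7 was the exception. With the block, Hoxb6 was called higher, as 4.83% of genes were. Hoxb6 had 395, 49.5 and 188 normalised counts in T/BraKO and 222, 18.4 and 95.1 in WT. The groups overlapped widely, but the log2 ratios within replicate numbers were 0.83, 1.43 and 0.99, and the blocked log2 fold change was 1.02 ± 0.252 (SE; DESeq2 adjusted p = 0.00146). Leaving out any 1 of the WT libraries, or T/BraKO replicate 1 or T/BraKO replicate 3, removed this call and left Hoxb1 as the 1 member called in the blocked fit.

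Hoxb5 had 143, 29.3 and 63.7 normalised counts in T/BraKO and a blocked log2 fold change of 1.15 ± 0.430 (SE; DESeq2 adjusted p = 0.0683). Hoxb8 had 1775, 290 and 887 normalised counts, with a blocked log2 fold change of 0.58 (95% interval -0.15 to 1.31). EdgeR with the block called Hoxb8 higher in addition to Hoxb6, as 4.3% of genes were, and Hoxb1 lower, as 5.2% were. Hoxb9 had 5157, 576 and 2816 normalised counts, above the WT library of the same number in each case, with a blocked log2 fold change of 0.67 whose 95% interval ran from -1.09 to 2.42. For Hoxb9 a difference of the size seen for Hoxb6 could not be told from none.

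Hoxb2, Hoxb3, Hoxb4 and Hoxb7 had blocked log2 fold changes of -0.06, 0.38, 0.34 and 0.14. The 95% interval was narrow for Hoxb2, from -0.32 to 0.20, and reached 0.83 for both Hoxb3 and Hoxb4. None of the 4 was called by either tool, with or without the block. Spearman's rho between cluster order and log2 fold change was 0.62 over the 9 genes, again a description, and it fell to 0.30 without WT replicate 2. From log2 ratios of single libraries, with 1 added to each normalised count, rho was 0.63, 0.67 and 0.47 within replicate numbers 1, 2 and 3. Summed levels of 5 paraxial mesoderm markers were 392 to 531 normalised counts in T/BraKO and 954 to 1385 in WT, and their part in the Hoxb1 difference was not tested.

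Set directly against each other, the mutants differed in 8 of the 9 members. CdxKO was the lower for Hoxb3 to Hoxb9, 7 genes where 0.962% of all genes were called lower, and the higher for Hoxb1, where 2.52% were called higher. For Hoxb1 the log2 difference was 2.19 ± 0.555 (SE; DESeq2 adjusted p = 0.00393), and every CdxKO library was above every T/BraKO library, as for 8.11% of genes. For the 7 lower members every CdxKO library was below every T/BraKO library, as for 7.27%. The replicate block left these 8 calls as they were, against backgrounds of 6.9% lower and 7.75% higher, and edgeR without it called 4, Hoxb6 to Hoxb9, against 0.385% lower and 1.24% higher. Hoxb2 was the one gene without a call, at a blocked log2 difference of 0.10 with a 95% interval of -0.17 to 0.36. The ratio of Hoxb9 to Hoxb1, per length, put both ends into 1 number: its log2 was 2.15, 0.17 and 2.43 in T/BraKO, 0.56, -2.67 and 0.16 in WT, and -7.38, -6.07 and -8.08 in CdxKO. The mutants share the WT libraries as controls, so the agreement or difference of their separate comparisons with WT is not itself a result.

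The level of the members also moved with the replicate number. In a fit with genotype as a term, replicate 1 was above replicate 2 for 9 of 9 members (16.6% of genes tested were called higher), and replicate 3 was above replicate 2 for 6 (21.8% of genes). Replicate 1 was above replicate 3 for 6 (9.17% of genes). No member was called in the other direction in any of the 3 comparisons, where 13.8%, 20.1% and 8.03% of genes were. In WT and in T/BraKO, 9 of 9 members had their levels in the order replicate 1, replicate 3, replicate 2. In CdxKO that order held for 4 of the 9, Hoxb1, Hoxb2, Hoxb3 and Hoxb8, the last from 3 to 6 reads a library. The share of all genes with that order was not counted, so these counts describe the members only.

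Between WT replicates 1 and 2 the fold difference was smallest for Hoxb1 and largest for Hoxb9, but it did not rise steadily between them. Replicate 1 exceeded replicate 2 in WT by 2.12-fold for Hoxb1, 5.08-fold for Hoxb2, 4.52-fold for Hoxb3 and 3.52-fold for Hoxb4. For Hoxb5, Hoxb6 and Hoxb8 the ratio was 18.6, 12.1 and 10.5, and for Hoxb9 it was 19.9. For Hoxb7 it was 5.00, and the ratio of Hoxb5 rests on 5 counts in WT replicate 2. In T/BraKO the ratios ran from 2.28 for Hoxb1 to 8.95 for Hoxb9, slightly above WT for Hoxb1 and below WT for each other member.

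In CdxKO Hoxb1, Hoxb2 and Hoxb3 kept the order of the replicate numbers seen in WT, and Hoxb4, Hoxb7 and Hoxb9 did not. Hoxb1 was 2.89-fold, Hoxb2 3.09-fold and Hoxb3 3.63-fold higher in CdxKO replicate 1 than in replicate 2. Hoxb9 was 1.16-fold higher in replicate 1, and its replicate 3 stood at 0.472 of replicate 2, against 8.68-fold in WT. These CdxKO values of Hoxb9 rest on 24, 29 and 13 counts in replicates 1, 2 and 3. Replicate 3 of CdxKO stood at 0.606 of replicate 2 for Hoxb4, against 1.81-fold in WT. For Hoxb7 it stood at 0.843, from 4 and 5 counts, against 2.48-fold in WT. With 1 library for each genotype and number, this difference between genotypes was not tested. It bears on the fitted values: the log2 fold change of Hoxb9 for replicate 1 against replicate 2 was 2.33 ± 0.908 (SE; DESeq2 adjusted p = 0.0369) over the 3 genotypes and 3.71 over WT and T/BraKO alone, and the call was lost without any 1 of WT replicate 1, WT replicate 2, or the T/BraKO libraries.

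**Figure D4:**
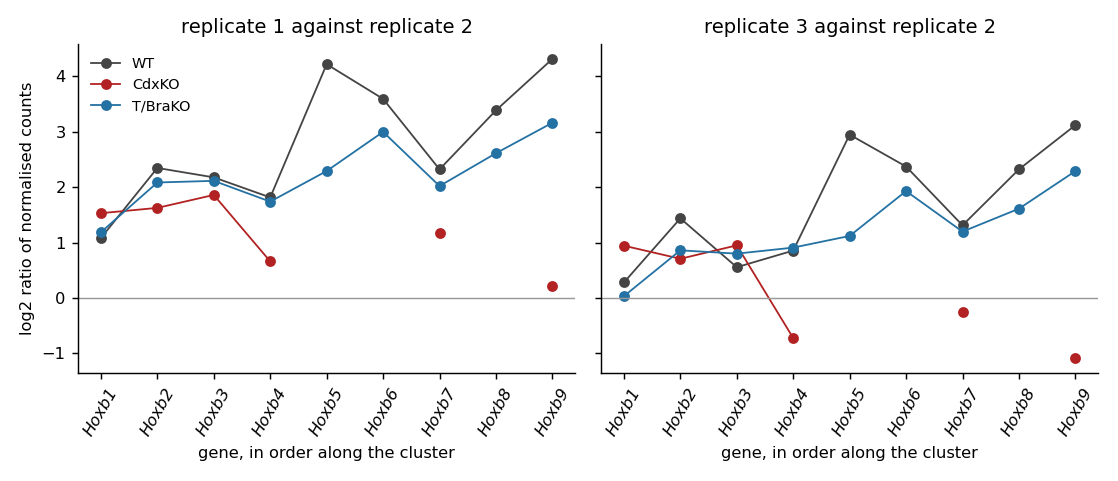
Log2 ratios of normalised counts between libraries of 1 genotype, replicate 1 over replicate 2 (left) and replicate 3 over replicate 2 (right), for Hoxb1 to Hoxb9 in order along the cluster; points are left out where either library had at most 3 counts. In WT the left-hand values are lowest at Hoxb1 (1.08) and highest at Hoxb9 (4.31). Between these they are uneven, falling from 2.35 at Hoxb2 to 1.81 at Hoxb4 and from 4.22 at Hoxb5 to 2.32 at Hoxb7. In CdxKO Hoxb9 stands at 0.22 (left) and -1.08 (right).

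Other measures moved with the replicate number as well. Cdx2 was 2.26-fold, 2.30-fold and 2.06-fold higher in replicate 1 than in replicate 2 of WT, CdxKO and T/BraKO. The summed level of 5 naive pluripotency markers was 2338 to 2617 normalised counts in the replicate 2 libraries and 987 to 1424 in the others. The 5 epiblast markers summed to 36119 to 46374 in replicate 3 and 21501 to 32154 in the others, and the 5 neural markers to 572 to 996 in replicate 1 and 181 to 456 in the others. These sums stood apart by replicate number. The 9 caudal epiblast markers summed to 19156 to 29733 in replicate 2, below the 30394 to 36006 of replicates 1 and 3. Of the 29 regulators of Hox expression listed, 7 were called higher and 2 lower in replicate 1 than in replicate 2, and 7 higher and 2 lower in replicate 3 than in replicate 2, where 16.6% and 21.8% of all genes were called higher and 13.8% and 20.1% lower. Wnt5a, a WNT ligand, Cyp26a1, which degrades retinoic acid, and the Polycomb gene Cbx2 were among the higher ones in both, and Pbx2 and Suz12 (replicate 1) and Aldh1a2 and Kmt2a (replicate 3) were the lower ones. The part of any of these in the Hoxb levels was not tested, and the labels do not say what the cultures of 1 number shared.

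The other Hox clusters were read for the 18 paralogues of the members. In CdxKO, of the 17 with an adjusted p, DESeq2 without the block called 7 lower and 0 higher, beside 0.358% and 0.335% of all genes. The 7 were Hoxa3, Hoxa5, Hoxc4, Hoxc5, Hoxc6, Hoxc8 and Hoxd4. With the block, where 11 had an adjusted p, the same 7 were called lower, beside 1.91% of all genes. EdgeR without the block called 0 of the 13 it tested, with 9 at an unadjusted p of at most 0.05. Hoxa3, of the same paralogue group as Hoxb3, had 376, 78.3 and 214 normalised counts in WT and 26.3, 7.14 and 5.64 in CdxKO. Hoxc8 had 156, 5.80 and 56.9 in WT and no reads in CdxKO. In T/BraKO DESeq2 called 0 of the 17 with an adjusted p without the block and 0 of the 7 with one under the block, with 0 and 1 of the 18 at an unadjusted p of at most 0.05. EdgeR also called 0 there, with or without the block.

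The transcripts inside and beside the cluster differed in level and in their calls. Hoxb5os, an antisense transcript named for Hoxb5, in libraries that keep the strand, had 79.9, 2.90 and 13.1 normalised counts in WT and no reads in CdxKO. It was called lower in CdxKO (DESeq2 adjusted p = 0.0022), as 0.358% of all genes were. By the WT mean it was at least 10.6-fold lower, taking 3 counts per library as the floor. That mean rests largely on WT replicate 1, and WT replicate 2 was itself at about the floor. Gm53, 6.59 kb beyond Hoxb9, had 31.5, 4.84 and 7.46 normalised counts in WT and 2.51, 2.68 and 0.941 in CdxKO, and was not called (DESeq2 adjusted p = 0.390). Its log2 fold change was -2.84 ± 1.04 (SE), in the same direction as that of Hoxb5os. EdgeR with the block called both lower, as 1.73% of genes were. Without the block it called neither, and 0.0756% of genes lower. Hoxb13, the far member of the locus, stayed at or below 5.38 normalised counts in each library. The 2 miRNA genes of the cluster, Mir10a and Mir196a-1, had at most 2.69 normalised counts in a library prepared from poly(A) RNA, which does not measure mature miRNAs.

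Outside the cluster, and leaving aside the transcripts of the locus just described, 22 genes of the table lay within 500 kb of its ends, and 17 of them averaged 10 or more normalised counts. In CdxKO none of the 17 was called without the block, where 0.358% of all genes were called lower and 0.335% higher. Their log2 fold changes did not exceed 0.86 in size. With the block Nfe2l1, 449 kb beyond Hoxb1, was called higher at 0.23 ± 0.0517 (SE; DESeq2 adjusted p = 0.000359), as 3.4% of all genes were. In T/BraKO the nearest of the 17 on the Hoxb1 side, Skap1, 96.3 kb away, was called lower without the block, as 0.937% of all genes were. Skap1, an adaptor of T cell receptor signalling, had 18.8, 23.8 and 10.8 normalised counts in T/BraKO, 74.3, 94.8 and 39.2 in WT, and 58.9, 76.8 and 48.0 in CdxKO. Its log2 fold change was -1.97 ± 0.447 (SE; DESeq2 adjusted p = 0.00201), and the T/BraKO libraries lay below all others. For 5.88% of genes they lay below every WT library, and for 8.11% below every CdxKO library.

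**Figure D5:**
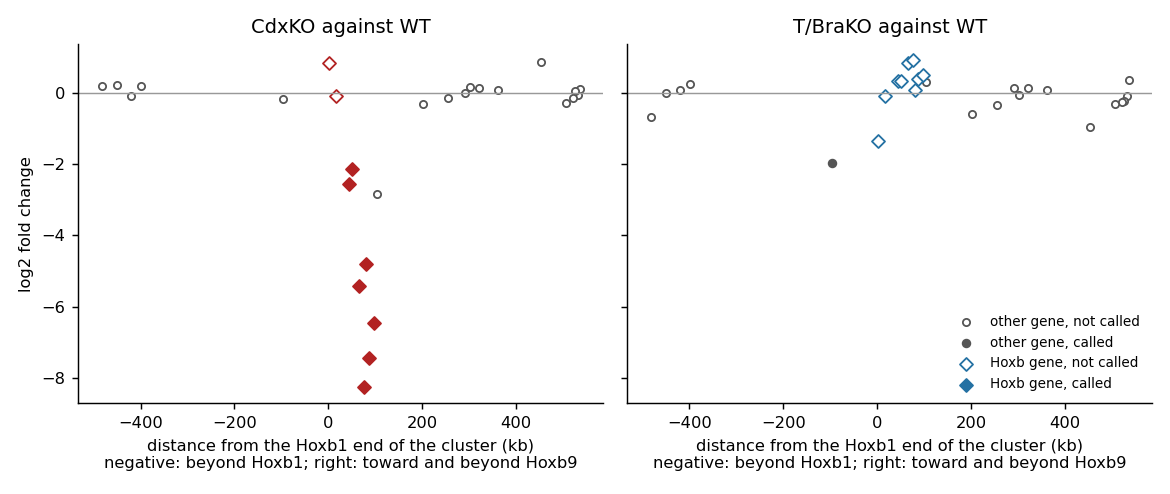
Log2 fold change of Hoxb1 to Hoxb9 and of each gene outside the cluster averaging 10 or more normalised counts, against its distance in kb from the Hoxb1 end of the cluster, for CdxKO against WT (left) and T/BraKO against WT (right), fitted without the replicate block; diamonds are Hoxb1 to Hoxb9, circles other genes, and filled symbols are called. In CdxKO the called genes are the 7 members from Hoxb3 to Hoxb9 with flanking genes near 0 except the uncalled Gm53; in T/BraKO the 1 filled circle is Skap1 at -1.97.

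Of 29 genes listed as regulators of Hox expression, 3 were called lower in CdxKO without the block and 1 higher, beside 0.358% and 0.335% of all genes. The lower ones were the WNT ligands Wnt3a (log2 fold change -1.42) and Wnt8a (-0.77) and the retinoic acid receptor Rarg (-0.52), and the higher one was the Hox cofactor Meis2 (1.60). With the block 8 were lower (1.91% of all genes), namely those 3 and Wnt5a (-0.84), the FGF ligand Fgf8 (-0.65), Gdf11 (-0.84), a signal of trunk-to-tail transition, the RNA-binding Lin28a (-0.25) and the Polycomb gene Cbx2 (-0.19). With the block 2 were higher (3.4% of all genes), Meis2 and the retinoic acid-synthesising enzyme Aldh1a2 (0.72). In T/BraKO Wnt3a (-1.18), Fgf8 (-1.56) and Meis2 (-1.24) were called lower and 0 genes higher without the block (0.937% and 0.148% of all genes). With it 4 were lower, the fourth being the Hox cofactor Pbx2 (-0.30), and 1, Wnt5a (0.55), higher (4.85% and 4.83% of all genes). Without the block edgeR called 0 of the 29 in CdxKO, with 7 at an unadjusted p of at most 0.05, and 1, Fgf8, lower in T/BraKO. With the block edgeR called 5 lower in CdxKO, not Fgf8, Lin28a or Cbx2 (1.73% of all genes). It called Meis2 higher there, not Aldh1a2 (2.82% of all genes). In T/BraKO edgeR with the block made the same calls as DESeq2 with it (5.2% lower and 4.3% higher of all genes).

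Genes whose profile over the 9 libraries most resembled that of a member differed along the cluster. By Pearson's r of log2(normalised count + 1), among 12308 genes outside the 9 members averaging 50 or more normalised counts, those most like Hoxb9 were Hoxc8 (0.99), Tmem131l (0.97), Hoxa3 (0.97), Mcm4 (0.97) and Camkv (0.97). Hoxb6, Hoxb8 and Hoxb7 themselves correlated with Hoxb9 at 0.99, 0.99 and 0.99. Outside the members, those most like Hoxb4 were Lrp3 (0.98), Hoxa3 (0.98), Cdx2 (0.97), Gdf11 (0.97) and Nin (0.96), beside 0.97 for its fellow member Hoxb9. Those most like Hoxb1 were Rin3 (0.97), Klhl6 (0.97), Fam229b (0.96), Tnc (0.96) and Plxna2 (0.96). Hoxb1 correlated with Hoxb2 at 0.51 and with each member from Hoxb3 to Hoxb9 below 0. The libraries share genotypes and replicate numbers, so these are descriptions with no p, and the genes most like Hoxb9 include Mcm4, which ranged only from 9430 to 10955 normalised counts.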

How the data were processed

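Poly(A) RNA from 9 cultures was sequenced by the authors as 76-base single-end, strand-specific reads. The submitters' processing notes name cutadapt 1.16, STAR 2.5.2a, RSEM 1.3.0 and mm10, and the study's methods name RefSeq genes. The authors deposited expected counts, estimates of RSEM that need not be whole, and TPM, a length-scaled level that the authors computed within each library. No member had a fractional count.

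The deposited expected counts were rounded and tested in R 4.3.3 with the Wald test of DESeq2 1.42.0, the tool the study names, on all 9 libraries, with genotype as the only term and Benjamini-Hochberg adjustment over all genes tested; a call is an adjusted p of at most 0.05. Log2 fold changes are not shrunken. Replicate numbers were compared with genotype as a term. TPM was used for levels between genes and was not tested. Alternatives were the replicate block, the quasi-likelihood test of edgeR 4.0.16 with and without it, TMM factors, a filter that kept genes reaching 10 counts in 3 or more libraries, fits to 6 libraries and leaving out each library.

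The numbers of the titles were taken to pair libraries: over 12316 genes averaging 50 or more normalised counts, deviations from the genotype means correlated at 0.53 to 0.81 in the 9 same-numbered pairs and at -0.69 to 0.13 in the 18 others. Deviations within a genotype cancel out, so the second range follows largely from the first and is not separate evidence. Both tools were tested on simulated counts with and without a replicate effect. Replicate libraries differed well beyond counting noise. The p-values measure the spread between cultures of 1 line.

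The 9 members, the gene lists (4 targeted genes, 18 paralogues, 6 other transcripts of the locus, of which Hoxb3os is not analysed here, flanking genes, 29 regulators and the markers), the motifs and the tests were chosen with earlier results of these data known. Named genes are the members, listed genes called or next to the cluster, and the 5 genes outside the members most like Hoxb1, Hoxb4 and Hoxb9. The remark on Mcm4 was made after its values were seen. The blocked result of 1 paralogue is not reported here. Columns of all 9 samples were used, and coordinates count from 1.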

Additional observations from a re-analysis of the deposited data

Results flagged for a closer look

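In 8 of the 9 genes of the cluster the 2 mutant lines differed from each other in the direct test of CdxKO against T/BraKO. That test called 0.962% of all genes lower and 2.52% higher. Of the members edgeR without the replicate block called only Hoxb6 to Hoxb9, where it called 0.385% of all genes lower and 1.24% higher. The log2 difference was 2.19 for Hoxb1, -2.91 for Hoxb3, -2.45 for Hoxb4, -6.27 for Hoxb5, -9.18 for Hoxb6, -4.90 for Hoxb7, -7.86 for Hoxb8 and -6.97 for Hoxb9, by DESeq2 with genotype as the only term. The values of Hoxb5 and Hoxb6 are model estimates on 3 reads and 1 read in CdxKO; as ratios of counts T/BraKO was 74.4 times CdxKO for Hoxb5 (exact 95% counting interval 25.1 to 363) and 596 times for Hoxb6 (106 to 23559). Groups of 3 libraries are too small for a test of single outlying libraries.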

How the results depend on the processing

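No call of a member changed under TMM factors or the filter on low counts in any of the 6 comparisons. For CdxKO against WT the 7 calls became 0 with edgeR without the replicate block, and leaving out 1 library gave 4 to 7 without the block, the lowest without WT replicate 1, and 7 to 8 with it. Of all genes, edgeR without the block called 0.0756% lower and 0.0344% higher, against 0.358% and 0.335% with DESeq2. Without WT replicate 1, DESeq2 without the block called 33 lower and 26 higher of 18823 genes. For T/BraKO against WT the 0 calls became 2 with the replicate block, 1 in the fit to 6 libraries and 3 with edgeR and the replicate block, and leaving out 1 library gave 0 to 1 without the block and 1 to 3 with it. The calls over all genes rose with the block as well. They were 0.937% lower and 0.148% higher without it, 4.85% and 4.83% with it, and 5.2% and 4.3% with edgeR and the block. The fit to 6 libraries called 163 lower and 30 higher of 16746 genes. For CdxKO against T/BraKO the 8 calls became 4 with edgeR without the block. Of all genes that fit called 0.385% lower and 1.24% higher, against 0.962% and 2.52% with DESeq2. For the replicate numbers, leaving out 1 library, an alternative added after seeing the data like the blocked fits that leave out 1 library, gave 8 to 9 calls for 1 against 2, 3 to 8 for 3 against 2 and 3 to 8 for 1 against 3. With DESeq2 the replicate block changed no call of a member other than those of Hoxb1 in both mutants and Hoxb6 in T/BraKO.

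The direction of Hoxb2 was not settled: its log2 fold change in CdxKO against WT was 0.039 with the replicate block, 0.023 with edgeR and the block, and -0.61 to 0.59 leaving out 1 library. For T/BraKO against WT it was -0.82 to 0.59, and for CdxKO against T/BraKO it was -0.0028 with TMM factors and -0.53 to 0.74 leaving out 1 library. In T/BraKO against WT, leaving out 1 library moved the log2 fold change between -0.43 and 1.26 for Hoxb3, -0.20 and 0.91 for Hoxb4, -0.48 and 0.79 for Hoxb7, -0.34 and 1.28 for Hoxb8 and -0.25 and 1.53 for Hoxb9, the negative values coming without WT replicate 2 or T/BraKO replicate 1. The rank correlation of cluster order with the change leaving out 1 library was -0.83 to -0.77 for CdxKO against WT and 0.30 to 0.63 for T/BraKO against WT without the block, and -0.87 to -0.77 and 0.33 to 0.75 with it. The cause of these differences was not tested. A depth of 3 counts or fewer leaves Hoxb5 and Hoxb6 in CdxKO without a measured size of change beyond their intervals.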
